A study of Mus musculus with 6 samples.

Results

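AP-1 and immediate early genes were followed in RNA sequencing of LSK cells from mouse bone marrow. These cells lack lineage markers and carry c-kit and high Sca-1 at their surface, and they include the stem cells of blood and their first progeny. The members were 10 of the 16022 gene symbols in the count table, chosen by symbol: Fos, Fosb, Fosl2, Jun, Junb, Jund, Egr1, Nr4a1, Ier2 and Dusp1. All 10 were found, and all 10 passed the filter on low counts that left 12875 genes for testing. The libraries came from 3 HDAC6 knockout samples and 3 wild-type (WT) samples. HDAC6 is a mainly cytoplasmic deacetylase. The labels give the genotypes as KO and WT and give no allele, strain, age, treatment or sort record, and nothing in them ties each sample to an animal of its own, so any p-value measures the spread between these samples only.

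Immediate early genes are transcribed within minutes of a stimulus, before new protein is made, and their mRNAs decay quickly. FOS and JUN family proteins pair through a leucine zipper to form AP-1, a transcription factor that binds the TGANTCA element, while EGR1 and NR4A1 are transcription factors of other families. The kinases of the MAPK pathway, the serum response factor and CREB are the best known activators of these genes, and DUSP1 is a phosphatase that shuts the kinases off again. In blood-forming tissue the same genes respond to cytokines and stress, and they are also known to respond when tissue is dissociated and cells are sorted. The question put to these data was whether the other 9 members varied with Fos. Fos was already known to stand among the genes with the smallest p-values in the knockout to WT comparison when the members were named. Differences between the groups in these genes are therefore given as a description. Counts of members past a threshold are printed beside the share of all genes, and no p-value is used as a test of a single member.

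The promoters of 4 members are shown because 3 of them, Fos, Fosb and Jun, had levels that did not overlap between the groups, and the last, Junb, is a close relative whose levels did. Each line gives the 250 bases before the annotated start in RefSeq on build GRCm38.p6, 5′ to 3′ on the gene's own strand. Capitals mark the core of the cyclic AMP response element (TGACG on either strand), the element TGACATCA known from the Jun promoter, the TATA box (TATAAA) and the CCAAT box.
Fos, chr12:85473640-85473889, plus strand: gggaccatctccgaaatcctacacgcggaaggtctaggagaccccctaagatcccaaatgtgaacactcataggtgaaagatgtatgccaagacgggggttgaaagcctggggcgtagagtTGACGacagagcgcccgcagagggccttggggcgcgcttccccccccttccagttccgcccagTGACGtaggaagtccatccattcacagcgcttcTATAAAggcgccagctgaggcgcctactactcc
Fosb, chr7:19310046-19310295, minus strand: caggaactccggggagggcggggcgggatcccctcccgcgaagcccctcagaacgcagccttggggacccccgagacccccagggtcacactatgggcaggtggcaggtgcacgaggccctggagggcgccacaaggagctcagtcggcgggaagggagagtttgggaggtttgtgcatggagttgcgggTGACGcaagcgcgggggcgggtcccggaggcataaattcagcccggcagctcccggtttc
Jun, chr4:95052223-95052472, minus strand: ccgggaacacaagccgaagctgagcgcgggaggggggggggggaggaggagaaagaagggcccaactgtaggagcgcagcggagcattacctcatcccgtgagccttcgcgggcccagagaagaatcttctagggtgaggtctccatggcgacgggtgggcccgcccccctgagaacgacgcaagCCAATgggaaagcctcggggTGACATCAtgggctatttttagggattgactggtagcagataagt
Junb, chr8:84978749-84978998, minus strand: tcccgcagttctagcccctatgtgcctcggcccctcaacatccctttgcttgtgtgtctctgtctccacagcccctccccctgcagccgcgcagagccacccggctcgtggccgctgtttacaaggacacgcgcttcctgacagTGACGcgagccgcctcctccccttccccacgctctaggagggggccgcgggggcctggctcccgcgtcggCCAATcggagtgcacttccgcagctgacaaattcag

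Such windows were found for 8 of the 10 members, all but Egr1 and Ier2. The core TGACG stood in 5 of these 8 windows, those of Fos, Fosb, Junb, Nr4a1 and Dusp1, against 17.8% of 32851 RefSeq windows of the same length searched on both strands. The Fos window held it at bases -129 to -125 and -66 to -62 before the start, with a TATA box at -33 to -28. The Jun window held no TGACG. It held TGACATCA at -45 to -38, an element present in 2.93% of all windows, and a CCAAT box at -65 to -61. The full element TGACGTCA, which contains the core on both strands, was found in the Dusp1 window alone among the 8, at -143 to -136, and in 1.55% of all windows. The AP-1 element TGANTCA (6.75% of all windows) and the CArG box bound by the serum response factor (1.47%) were in 0 of the 8. A match or its absence describes these letters in this window and no more.

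Total estimated counts ran from 27253024 to 28743694 in the knockout libraries and from 25993988 to 27371342 in the WT libraries. Hdac6 checked the labels: it stood at 9.62, 7.69 and 11.3 CPM (counts scaled to the size of the library) in knockout replicates 1, 2 and 3, against 68.0, 58.2 and 54.3 CPM in WT replicates 1, 2 and 3. The markers of the sort gate were present in every library. Kit, the c-kit receptor, ran from 725 to 1082 CPM in knockout libraries and from 1127 to 1367 CPM in WT libraries, and Ly6a, which encodes Sca-1, from 82.1 to 119 CPM in knockout libraries and from 60.3 to 68.7 CPM in WT libraries. Of 7 markers of LSK cells, 2 (Kit and Cd34) had all knockout libraries below all WT libraries, beside 9.7% of tested genes. Another 2 (Ly6a and Cd48) had them all above, beside 8.86%, and 3 (Flt3, Slamf1 and Ptprc) overlapped. Whether the sorted cells differed in make-up was not tested. All CPM values here are scaled by the TMM factors of edgeR, and all fold changes are knockout over WT on the log2 scale.

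Among the Fos family, Fos and Fosb were lower in every knockout library than in any WT library, and Fosl2 was not. Fos encodes the prototypic AP-1 subunit, which needs a JUN partner to bind DNA. It measured 4.70, 7.43 and 4.93 CPM in knockout replicates 1, 2 and 3, against 22.3, 27.0 and 12.4 CPM in WT replicates 1, 2 and 3. The highest knockout library thus lay below the lowest WT library, and the WT libraries differed among themselves by 2.17-fold. The means were 5.69 ± 1.51 CPM in the knockout and 20.6 ± 7.43 CPM in WT (SD, n = 3 each), which puts the knockout at 27.7% of the WT mean, with a log2 fold change of -1.85 (SE 0.32). These levels rested on 128 to 205 counts in knockout libraries and 328 to 763 counts in WT libraries. With each library left out in turn, the log2 fold change of Fos ran from -2.11 to -1.61. In bulk RNA, fewer cells that express a gene and less RNA per cell cannot be told apart.

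Fosb encodes a FOS relative that is induced by many of the same stimuli. It was close to the limit of detection, with 7, 1 and 9 counts in knockout replicates 1, 2 and 3, against 20, 44 and 11 counts in WT replicates 1, 2 and 3. It passed the filter on low counts only through the WT libraries, so its presence among the tested genes already required a difference. Its levels were 0.257, 0.0363 and 0.326 CPM in the knockout, against 0.718, 1.56 and 0.416 CPM in WT, a log2 fold change of -2.10 with an SE of 0.94. Fosl2 encodes FRA2, a FOS relative that lacks the strong activation domain of FOS. It had 4.19, 5.04 and 5.73 CPM in the knockout, against 2.08, 5.80 and 5.38 CPM in WT. WT replicate 1 alone was low, the groups overlapped, and the log2 fold change was 0.17 (SE 0.41) with all libraries and -0.16 without that library.

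**Figure D1:**
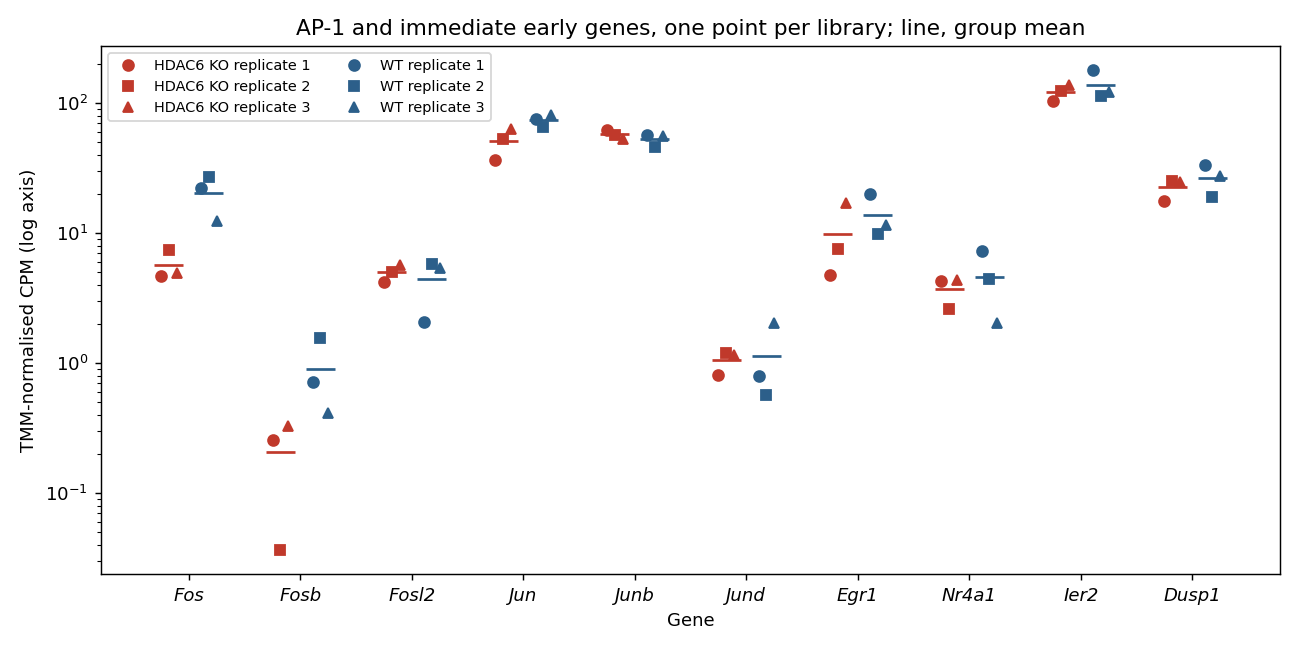
Level of the 10 genes in each library, in TMM-normalised CPM on a log axis, with HDAC6 knockout libraries in red, WT libraries in blue and a line at each group mean. Fos, Fosb and Jun have all 3 knockout points below all 3 WT points, and the other 7 genes overlap.

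In the Jun family a single gene, Jun, had groups that did not overlap. Jun encodes the main partner of FOS. It measured 36.3, 53.6 and 63.7 CPM in knockout replicates 1, 2 and 3, against 75.1, 65.7 and 81.6 CPM in WT replicates 1, 2 and 3. Knockout replicate 3 and WT replicate 2 nearly touched, while knockout replicate 1 lay well below the rest. The means were 51.2 ± 13.9 CPM in the knockout and 74.2 ± 8.01 CPM in WT (SD, n = 3 each). The log2 fold change of -0.53 (SE 0.19) moved to -0.34 when knockout replicate 1 was left out and to -0.72 when knockout replicate 3 was. Junb encodes a JUN relative that can oppose JUN at some promoters. It had 62.8, 57.4 and 52.7 CPM in the knockout, against 57.2, 46.0 and 55.8 CPM in WT, a log2 fold change of 0.12 (SE 0.14). Its libraries were the closest together of the 10 genes, with 1.19-fold between the highest and lowest knockout library and 1.24-fold between the highest and lowest WT library. Jund, whose product is known for a steadier level than the other JUN proteins, had low values here, 0.808, 1.20 and 1.16 CPM in the knockout, against 0.790, 0.566 and 2.04 CPM in WT. These came from 22 to 33 counts in the knockout and 16 to 54 in WT. WT replicate 3 held the highest value and WT replicate 2 the lowest, and the log2 fold change of -0.10 (SE 0.68) was 0.64 without WT replicate 3.

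The 4 members outside AP-1 overlapped between the groups. Egr1 encodes a zinc finger transcription factor that is known in mice to restrain stem cell division and movement. It measured 4.77, 7.54 and 17.1 CPM in knockout replicates 1, 2 and 3, against 19.9, 9.90 and 11.5 CPM in WT replicates 1, 2 and 3. Knockout replicate 3 lay above WT replicates 2 and 3, while the other knockout libraries lay below all of WT. The log2 fold change was -0.49 (SE 0.44) with all libraries, -1.16 without knockout replicate 3 and -0.12 without WT replicate 1. Nr4a1, the orphan nuclear receptor NUR77, had 4.26, 2.61 and 4.35 CPM in the knockout, against 7.29, 4.46 and 2.04 CPM in WT. Its WT libraries spread 3.57-fold and enclosed the knockout libraries, and its log2 fold change of -0.30 (SE 0.46) was 0.20 without WT replicate 1.

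Ier2, a small nuclear protein gene of the immediate early class, was the most abundant member. It had 105, 124 and 139 CPM in the knockout, against 181, 113 and 123 CPM in WT. WT replicate 1 stood above the other 5 libraries. The log2 fold change was -0.18 (SE 0.18) with all libraries and 0.056 once that one was left out. Dusp1, the MAP kinase phosphatase, had 17.7, 25.2 and 24.6 CPM in the knockout, against 33.7, 18.9 and 27.5 CPM in WT. Its log2 fold change was -0.25 (SE 0.23), and -0.043 without WT replicate 1, which again was the highest library. In Egr1, Nr4a1, Ier2 and Dusp1 alike the highest level among all 6 libraries was in WT replicate 1.

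**Figure D2:**
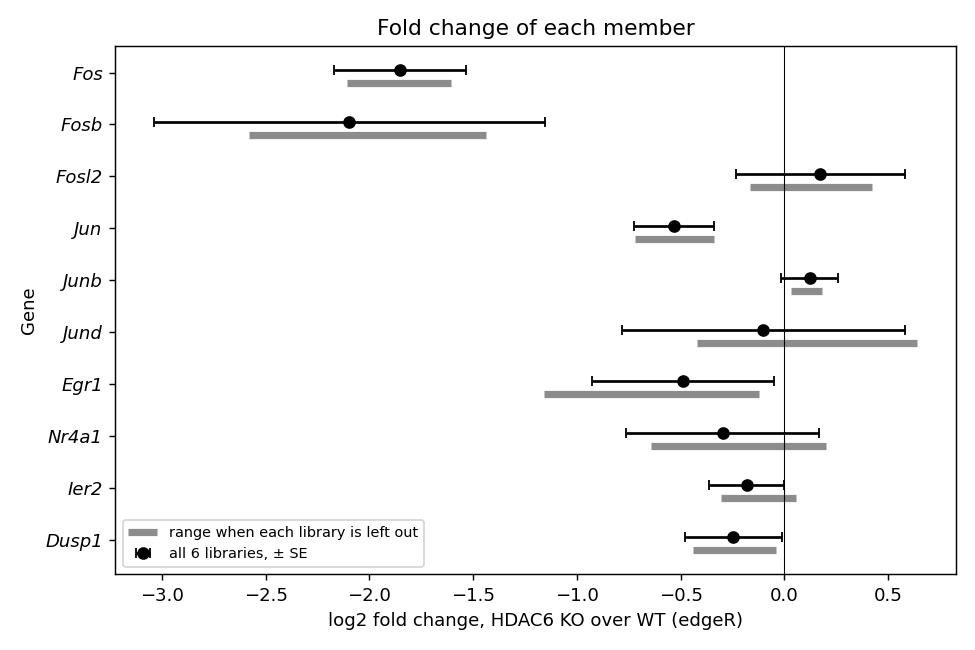
Log2 fold change of each gene, HDAC6 knockout over WT, by edgeR (black points with standard errors), and the range of that value when each library is left out in turn (grey bars). Fos at -1.85 and Fosb at -2.10 have the lowest values, and the other 8 genes lie between -0.53 and 0.17. Fosb has an SE of 0.94 and passed the filter on low counts only through the WT libraries. The grey bars of Fosl2, Jund, Nr4a1 and Ier2 cross 0.

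Among all genes tested, 1 gene (Hdac6) had an adjusted p under 0.05 by the quasi-likelihood test of edgeR, 0.00777% of those tested, and 0 of the 10 members did. At an unadjusted p under 0.05 there were 2 members, against 13.4% of all tested genes. By limma-voom and by limma on log2(FPKM + 1) there were also 0 members. DESeq2 called 1 member, on the lower side, which was Fos, the gene already known for its p-value, where it called 0.456% of its genes lower and 1.35% in either direction. All knockout libraries lay below all WT libraries in 3 members and in 9.7% of tested genes, and of the 3 Fosb was tested only through its WT libraries. All knockout libraries lay above all WT libraries in 0 members and in 8.86% of tested genes. Log2 fold changes were below 0 in 8 members and above 0 in 2. Their median was -0.27, beside -0.0034 over all tested genes, of which 50.5% were below 0. Because the list was drawn up with this comparison in view, nothing is read from these counts about the members as a class.

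Levels per transcript length, in the FPKM values (fragments scaled to transcript length and library size) that the authors deposited, put the members in nearly the same order in both groups. Ier2 was highest, at 91.9 ± 15.6 FPKM in the knockout and 109 ± 28.7 FPKM in WT, and Junb came next, at 34.6 ± 2.08 FPKM in the knockout and 33.4 ± 3.51 FPKM in WT (SD, n = 3 each), without overlap between the 2 genes in any library. Jun followed at 16.9 ± 5.04 FPKM in the knockout and 25.6 ± 2.48 FPKM in WT, then Dusp1 at 12.8 ± 2.59 FPKM in the knockout and 15.8 ± 4.33 FPKM in WT. The ranges of Jun and Dusp1 overlapped within the knockout and were apart within WT. The place of Fos in this order differed. In the knockout, with 2.37 to 3.78 FPKM, it lay wholly below Dusp1 and within the range of Egr1 (1.59 to 6.06 FPKM). In WT, with 6.63 to 14.8 FPKM, it stood between Dusp1 and Egr1 and overlapped with both. Nr4a1, Fosl2, Jund and Fosb had 1.58, 0.837, 0.387 and 0.0600 FPKM on average in the knockout and 2.05, 0.727, 0.433 and 0.263 FPKM in WT.

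The variation between libraries of the same genotype offers a view of whether the members moved with Fos that does not rest on the groups. Fos was highest in replicate 2, then 3, then 1 within the knockout, and highest in replicate 2, then 1, then 3 within WT. Of the other 9 members, 2 (Jund and Dusp1) had the knockout order of Fos, beside 12.3% of all tested genes, and 1 (Fosb) had its WT order, beside 15.3% of all tested genes. None (0) had both, beside 2.00% of tested genes. The knockout order of Fos rested on a near tie, with 136 counts in replicate 3 and 128 in replicate 1. Jund had 33 and 32 counts in knockout replicates 2 and 3, and Dusp1 had 25.2 and 24.6 CPM there. With such near ties a shared knockout order is not resolved. Counted with Fos itself, the knockout order was that of Fos, Jund and Dusp1, and the WT order that of Fos and Fosb. The orders of Egr1 follow, with Egr1 itself counted. Egr1, Ier2, Dusp1 and Junb, 4 members in all, were highest in WT replicate 1, then 3, then 2, an order found in 15.4% of tested genes. Egr1, Ier2, Jun and Fosl2 were highest in knockout replicate 3, then 2, then 1, an order found in 19.7% of tested genes. Egr1 and Ier2 thus shared an order of libraries in both groups that was not the order of Fos. The share of all tested genes with both of these orders was not counted. These are ranks of 3 libraries each, given as a description.

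**Figure D3:**
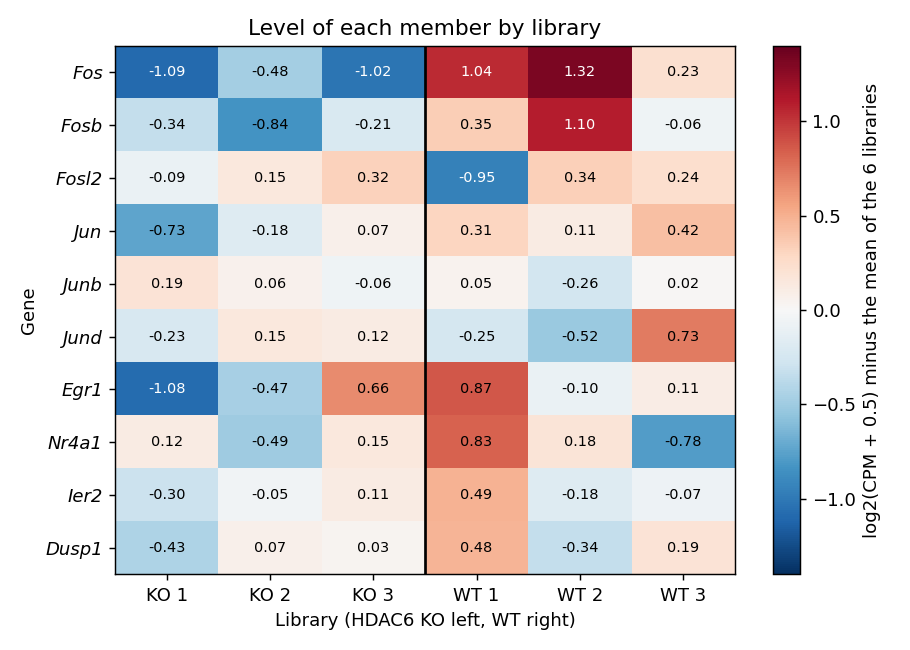
Each gene's log2(CPM + 0.5) in each library minus the mean of its 6 libraries, with knockout libraries left and WT libraries right of the black line (red above, blue below the mean). Fos runs from -1.09 to -0.48 in the knockout and from 0.23 to 1.32 in WT, whereas Egr1 reaches 0.66 in knockout replicate 3 and Ier2 and Dusp1 lie below 0 in WT replicate 2, where Fos is highest.

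The same centred profiles gave a distance from Fos, the mean absolute difference over the 6 libraries in log2 units. Fosb lay at 0.52, but it was tested only because it was high in WT, so its place near Fos was largely fixed beforehand and is not ranked. Of the other members Egr1 lay at 0.57, Jun at 0.65 and Dusp1 at 0.75, and Jund was farthest at 1.04. Among the 10283 tested genes other than Fos that averaged at least 5 CPM in 1 group, 153 lay nearer to Fos than Egr1 did, 511 nearer than Jun and 1889 nearer than Dusp1. For Ier2, at a distance of 0.78, 2538 lay nearer, and for Junb, at 0.92, 6782 did. Fosb, Fosl2, Jund and Nr4a1, 4 members in all, did not reach that level in either group. The 5 nearest genes outside the list were Gcsam, Msrb3, Speg, Msmo1 and Pdgfd, at 0.35 to 0.37. Msmo1, an enzyme of sterol synthesis, had 27.1, 30.4 and 25.3 CPM in the knockout, against 61.6, 59.9 and 45.3 CPM in WT, and Gcsam had 4.52, 5.55 and 6.85 CPM in the knockout, against 15.1, 13.8 and 10.9 CPM in WT. The distance includes the difference between the groups, by which Fos was known beforehand, and it is a measure over 6 libraries only.

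Markers of neutrophils, cells that carry Fos mRNA, were low in all libraries, and their sum, though not each marker, was lower in every knockout library than in any WT library. The summed level of 10 neutrophil markers was 29.3, 33.9 and 17.6 CPM in knockout replicates 1, 2 and 3, against 74.0, 44.3 and 109 CPM in WT replicates 1, 2 and 3. Of the 10, 4 (S100a8, Ltf, Ngp and Mmp9) had all knockout libraries below all WT libraries, as 9.7% of tested genes did. The groups overlapped in 6 (S100a9, Camp, Mmp8, Retnlg, Cxcr2 and Ly6g). Mmp9 passed the filter on low counts only through the WT libraries, so its difference was largely fixed beforehand. The granule gene Ltf ran from 1.02 to 2.86 CPM in the knockout and from 5.87 to 24.7 CPM in WT, and the surface marker Ly6g was at 0 counts in all knockout libraries and at most at 0.568 CPM in WT. Cxcr2, the chemokine receptor of mature neutrophils, was the 1 marker with a higher mean in the knockout, at 3.86 to 8.37 CPM in the knockout and 5.06 to 5.68 CPM in WT. Within WT the neutrophil sum was highest in replicate 3, where Fos was lowest, and lowest in replicate 2, where Fos was highest. Within the knockout both were highest in replicate 2, while the sum was lowest in replicate 3 and Fos in replicate 1. In knockout replicates 1 and 3, however, Fos was nearly tied, at 4.70 and 4.93 CPM. The part of these cells in the level of Fos was not tested. Summed monocyte and macrophage markers ran from 266 to 909 CPM in the knockout and from 252 to 428 CPM in WT. Markers of T and natural killer cells summed to 324 to 421 CPM in the knockout and 348 to 385 CPM in WT. Most of this was Nkg7, with means of 280 and 286 CPM. Of these 12 markers, 4 (Cd2, Cd3g, Il2rb and Prf1) had all knockout libraries above all WT libraries, beside 8.86% of tested genes. The opposite held for 1, Lck, beside 9.7% of tested genes. Cd2 and Prf1 passed the filter on low counts only through the knockout libraries. Cd3g, at 0 in all WT libraries and 0.184 to 0.471 CPM in the knockout, was too low to pass it. The share of tested genes is therefore no yardstick for Cd2, Prf1 and Cd3g. Il2rb ran from 8.78 to 33.3 CPM in the knockout and from 2.87 to 5.76 CPM in WT. Markers of B and plasma cells summed to 129 to 228 CPM in the knockout and 134 to 188 CPM in WT. Erythroid markers summed to 32.2 to 65.0 CPM in the knockout and 36.6 to 64.9 CPM in WT, and markers of stroma and endothelium to 126 to 173 CPM in the knockout and 143 to 160 CPM in WT. Nearly all of the stromal and endothelial sum was Pecam1, with means of 147 CPM in the knockout and 148 CPM in WT.

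**Figure D4:**
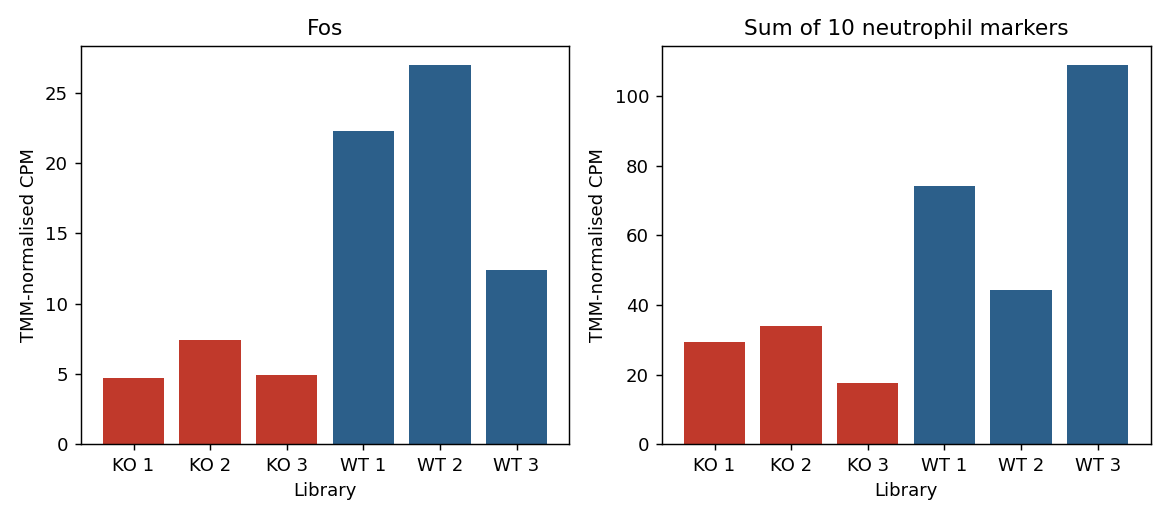
Fos (left) and the summed level of 10 neutrophil markers (right) in each library, in TMM-normalised CPM, with knockout bars in red and WT bars in blue. Fos and the sum are lower in all 3 knockout libraries. Within WT the library with the highest neutrophil sum (109 CPM) has the lowest Fos (12.4 CPM). Within the knockout the library with the highest sum (33.9 CPM) has the highest Fos (7.43 CPM).

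A wider list of immediate early genes was divided evenly by sign, but its largest changes were on the higher side. Of 36 tested, 18 were below WT and 18 above, with a median log2 fold change of -7.29e-05. The values ran from -0.74 to 2.46. Relative to the mean of all libraries, this list averaged 0.024, 0.063 and 0.12 log2 units in knockout replicates 1, 2 and 3. It averaged -0.030, -0.035 and -0.14 log2 units in WT replicates 1, 2 and 3. By edgeR 0 genes of this list or of the lists that follow were called. In this list 6 had an unadjusted p under 0.05, a limit passed by 13.4% of all tested genes, and DESeq2 called 2, Socs3 and Cebpd, both higher (0.897% of its genes were called higher). Socs3, the cytokine-induced inhibitor of JAK kinases, had 66.6, 32.2 and 15.1 CPM in knockout replicates 1, 2 and 3, against 6.10, 5.90 and 8.74 CPM in WT replicates 1, 2 and 3, a log2 fold change of 2.46 (SE 0.47). Every knockout library lay above every WT library, and knockout replicate 1 stood far above knockout replicate 3. Cebpd, a transcription factor gene induced by the same cytokine pathway, had 4.52, 6.24 and 1.45 CPM in the knockout, against 1.08, 0.495 and 1.02 CPM in WT. Dusp2, a MAP kinase phosphatase gene like Dusp1, averaged 18.5 ± 2.46 CPM in the knockout and 10.2 ± 5.38 CPM in WT, and Gadd45b, a stress-response gene, 10.3 ± 3.15 CPM in the knockout and 6.27 ± 1.82 CPM in WT (SD, n = 3 each).

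In the wider list 1 of the 36 genes, Btg2, had all knockout libraries below all WT libraries, as 9.7% of all tested genes did, and 4 (Socs3, Cebpd, Gadd45g and Dusp2) had them all above, as 8.86% did. Btg2, an antiproliferative gene, had 27.1, 37.9 and 40.1 CPM in the knockout, against 57.6, 58.0 and 45.2 CPM in WT, a log2 fold change of -0.61 (SE 0.18). Zfp36, which encodes tristetraprolin, a protein that speeds the decay of Fos and other short-lived mRNAs, had 58.8, 58.9 and 73.4 CPM in the knockout, against 84.8, 86.1 and 56.7 CPM in WT. Its WT libraries were highest in replicate 2 and lowest in replicate 3, as for Fos, but the groups overlapped and the log2 fold change was -0.25 (SE 0.18). Btg2 and Gadd45g were named after their values were seen.

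The kinases and factors that act on Fos and Jun showed no common direction. Of 30 MAP kinase pathway genes, 17 were below WT and 13 above (median log2 fold change -0.087), and 7 had an unadjusted edgeR p under 0.05, beside 13.4% of all tested genes. Mapk8, which encodes JNK1, a kinase of JUN, had 5.62, 4.35 and 6.13 CPM in the knockout, against 7.72, 8.84 and 10.8 CPM in WT, a log2 fold change of -0.76 (SE 0.27), with every knockout library below WT. Map2k2, which encodes the ERK kinase MEK2, had 138, 136 and 106 CPM in the knockout, against 80.4, 44.0 and 85.9 CPM in WT, and was the 1 gene of this list that DESeq2 called, on the higher side (0.897% of all its genes). Rps6ka3, the kinase RSK2, had a log2 fold change of 1.03 (SE 0.41) with knockout replicate 1 far above the rest. Among 14 genes of the serum response factor, its ETS partners and CREB, 8 were below WT and 6 above (median -0.036), with Elk4 at 0.60, Crtc3 at 0.46 and Crebbp at -0.32. Srf itself averaged 4.86 ± 1.33 CPM in the knockout and 4.95 ± 1.14 CPM in WT (SD, n = 3 each).

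Other bZIP factors that can pair with AP-1 proteins had a median log2 fold change of 0.020 over 17 tested genes, 7 below WT and 10 above. Atf4 had 120, 108 and 118 CPM in the knockout, against 82.4, 96.5 and 93.1 CPM in WT, a log2 fold change of 0.35 (SE 0.11), while Bach2 averaged 17.1 ± 3.23 CPM in the knockout and 23.2 ± 2.36 CPM in WT (SD, n = 3 each). Nfil3 followed at 0.36 (SE 0.32). Factors that bind the AU-rich elements of short-lived mRNAs had a median of -0.079 over 8 genes. Elavl1, which encodes the stabilising protein HuR, had 173, 172 and 128 CPM in the knockout, against 89.4, 48.9 and 120 CPM in WT, and was called higher by DESeq2. Zfp36l1 had a log2 fold change of -0.31 (SE 0.17).

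A list of heat shock genes and chaperones was divided. Of 13 tested, 9 were above WT and 4 below, with a median log2 fold change of 0.40. The 4 below WT were Hspa1b at -0.94 (SE 1.17), Hspa1a at -0.16 (SE 0.84), Dnajb4 at -0.071 (SE 0.21) and Dnajb1 at -0.019 (SE 0.15). All 4 overlapped between the groups. The 9 above WT were Hspa8 and Hsp90ab1 of the cytosol, Hspd1 and Hspe1 of mitochondria, Hspa5 of the endoplasmic reticulum, and Hsph1, Hsp90aa1, Dnaja1 and Bag3. Of these, 5 (Hsph1, Hspe1, Dnaja1, Hspd1 and Hsp90ab1) had all knockout libraries above all WT libraries, as 8.86% of tested genes did. In the list 7 genes had an unadjusted edgeR p under 0.05, beside 13.4% of all tested genes. DESeq2 called 2, Hsph1 and Hspa5, higher, beside 0.897% of all its genes. Hsph1, an HSP110 chaperone, had 361, 302 and 216 CPM in knockout replicates 1, 2 and 3, against 136, 195 and 215 CPM in WT replicates 1, 2 and 3. Knockout replicate 1 was highest and WT replicate 1 lowest. Hspa5 averaged 1424 ± 404 CPM in the knockout and 925 ± 48.4 CPM in WT, and Hsp90aa1 2282 ± 530 CPM in the knockout and 1620 ± 230 CPM in WT (SD, n = 3 each). Hspa1a was near the limit of detection in all libraries, with 2.53, 0.725 and 0.326 CPM in the knockout, against 0.431, 2.02 and 1.55 CPM in WT. The mean of this list in knockout replicate 3, which was -0.15 log2 units relative to the mean of all libraries, lay within the range of WT. With no record of sorting or processing times in the labels, a difference in cell handling cannot be told apart from the genotype.

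**Figure D5:**
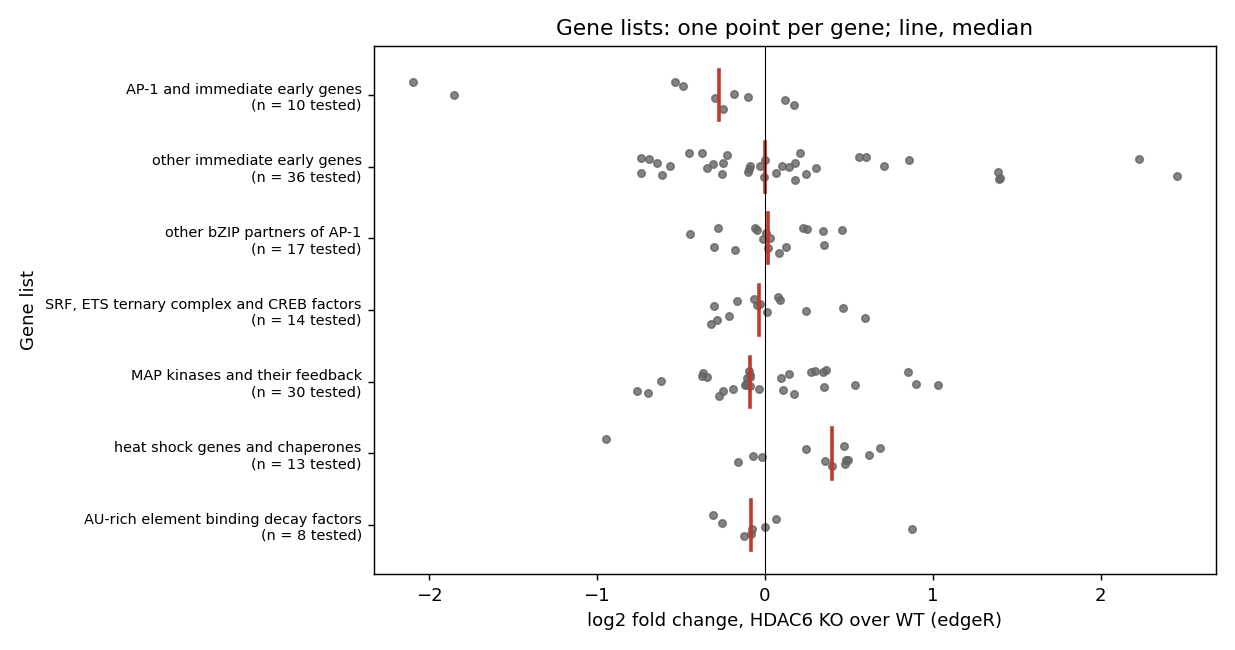
Log2 fold change of each tested gene, HDAC6 knockout over WT by edgeR, in 7 gene lists, with 1 grey point a gene and a red line at the median. The 10 AP-1 and immediate early genes have a median of -0.27. Fos and Fosb lie at the far left, and Fosb rests on at most 44 counts a library. The 36 other immediate early genes have a median near 0 and run from -0.74 to 2.46 (Socs3). The heat shock genes and chaperones have a median of 0.40, from Hspa1b at -0.94 to Hsph1 at 0.69.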

How the data were processed

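The deposited table holds estimated counts and FPKM per gene symbol for 6 libraries, per the file headers. Per the submitters' processing notes HISAT2 2.2.1, SAMtools 1.13, featureCounts 2.0.3, DESeq2 and build GRCm39 were used, with no roles stated. The sources used here do not give the annotation, the strand setting or the treatment of shared reads. Between 19.6% and 20.9% of the deposited estimated counts were not whole and were rounded. The deposited FPKM served for levels between genes and 1 alternative.

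Knockout was compared with WT by edgeR 4.0.16 (R 4.3.3; filterByExpr, minimum count 10; TMM; robust glmQLFit; Benjamini-Hochberg over 12875 genes). Standard errors are the log2 fold change over the root of F. A count of 0 allows up to 0.106 to 0.114 CPM (3 counts, counting error only). No pair of libraries agreed within sampling noise (chi-square per degree of freedom 24.9 to 87.3), so each counted once. By this measure knockout replicate 3 was nearer to WT replicates 1, 2 and 3 (34.2, 32.9 and 24.9) than to knockout replicates 1 and 2 (55.8 and 51.5). The members and all gene lists were chosen with earlier results of these data known. Named genes were the members, the 3 largest fold changes per list at 5 CPM or more, and the 5 profiles nearest Fos. Others were named after their values were seen. Alternatives were RLE, library size alone, no filter, a filter of 5 CPM in 3 libraries, DESeq2 1.42.0, limma 3.58.1 (voom, or log2(FPKM + 1)), a replicate block and each library left out. The edgeR, DESeq2 and limma-voom fits were run on simulated counts: they recovered the sign and size of the changes, missed part of them, and unchanged genes took a larger share of their calls than the adjusted p threshold allows. The fit on log2(FPKM + 1) was not simulated. Promoters were from RefSeq, on GRCm38.p6, and no coordinates of the count table's build were used.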

Additional observations from a re-analysis of the deposited data

How the results depend on the processing

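With 3 libraries a group, the fold changes of Fosl2, Jund, Nr4a1 and Ier2 changed sign when a single library was left out. Those of the other members kept their sign, but their size could still depend on 1 library, as in Egr1 and Dusp1. DESeq2 called 181 genes (120 higher, 61 lower) where edgeR called 1, and 1 member (Fos) where edgeR called 0. Leaving out each library gave 1 to 44 called genes (44 without knockout replicate 3, 4 without knockout replicate 1) and 0 members. Fos kept a negative log2 fold change in all 14 alternatives (-2.11 to -1.58), as did Jun (-0.72 to -0.34), Egr1 (-1.16 to -0.12) and Dusp1 (-0.44 to -0.043). Fosb ran from -2.81 to -0.25, where -0.25 came from log2(FPKM + 1), whose pseudocount shrinks low genes. Of the values near 0, Jund turned to 0.19 with limma-voom and ranged from -0.42 to 0.64 with a library left out. Without WT replicate 1, Fosl2 turned to -0.16 (range with a library left out to 0.42), Nr4a1 to 0.20 (from -0.64) and Ier2 to 0.056 (from -0.31). The cause of these turns was not tested. Log2 fold change medians also moved. That of the other immediate early genes was -0.071 with library size alone, -0.097 with the stricter filter and -0.039 to 0.077 with a library left out. The MAP kinase median was -0.16 with library size alone and -0.073 to 0.045 with a library left out. With a library left out, the bZIP median ran from -0.084 to 0.14 and that of the serum response and CREB factors from -0.14 to -0.0011. The labels do not say whether the shared replicate numbers pair the libraries. Deviations of same-numbered libraries correlated at 0.033, -0.039 and -0.12 across genes, beside -0.072 to 0.11 for differently numbered ones. With 3 libraries a group these values cannot decide it. With the replicate number as a block 1 gene and 0 members were called, while Jund turned to 0.081. The stricter filter left 7 members. Fosb and Jund rested on at most 54 counts a library, so their values are imprecise.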
